A study of Rattus norvegicus with 6 samples.

Results

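The mitochondrial ribosomal proteins are the nuclear-encoded proteins of the ribosome that works inside mitochondria. They were taken here as every gene whose symbol begins with Mrps or Mrpl and a digit, which gave 69 of the 15037 named genes on the array. The 24 Mrps genes are named for the small subunit and the 45 Mrpl genes for the large subunit, and each was measured by a single probeset, a group of probes for a gene. They were chosen because Mrps23 was lower in every knockout array, so the comparison of knockout with wildtype is a description: the fit's counts are printed for it, and nothing is supported with them. Sex was not used in that choice and was tested.

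The arrays measured RNA of blood vessel endothelial cells from the abdominal skin of 6 Sprague-Dawley rats. Of these, 3 were IL-33 knockouts and 3 were wildtype, with 2 females and 1 male in each group. Skin was digested with Collagenase I and DNAseI, CD45+ and then Lyve-1+ cells were depleted on magnetic beads, and CD31+ cells were kept. Each array is named here by its genotype and animal number, and values are given in a fixed order: knockout 28, 27 and 52, then wildtype 34, 45 and 37, where 52 and 37 are the males. The sources used here give neither the knockout allele, nor any cell restriction of it, nor the ages of the rats. All values are deposited log2 levels, so a difference of 1 stands for a ratio of 2, on the reading that the scale is log2.

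Mitochondria keep a small genome that codes for core subunits of the respiratory chain and of ATP synthase, and the mitochondrial ribosome translates it. Its small subunit holds the decoding site for the messenger RNA, and its large subunit joins amino acids and passes the new chain to the inner membrane. Many of its proteins have bacterial counterparts, while others are found only in mitochondrial ribosomes. All of its proteins are made in the cytosol and imported, so their messenger RNAs depend on nuclear promoters. Endothelial cells are known to rely strongly on glycolysis for energy, and their mitochondria are also known for roles in signalling and biosynthesis.

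The promoters of these genes can be read beside their levels. RefSeq promoters of build GRCr8, each running from 250 bases before to 50 after the gene's start, were matched for 58 of the 69 members. Motifs were searched by letters on both strands: the NRF1 motif, which reads GCGCA, any base, then GCGC, the ETS motif CCGGAAG, the YY1 motif AANATGGC and the CCAAT box. NRF1, ETS-family factors such as GABPA, and YY1 are known as regulators of nuclear genes for mitochondria. Mrpl32 was among the 6 members that held 3 kinds of motif, and Mrpl52 held 2 ETS matches. Mrpl19, whose knockout and wildtype arrays did not overlap, had no matched promoter. Printed are the promoters of Mrps23, Mrpl41 and Mrpl50, whose arrays did not overlap either, and those of Mrpl32 and Mrpl52. They lie at chr10:73495988-73496287 on the plus strand (Mrps23), chr3:28179706-28180005 on the minus strand (Mrpl41), chr5:68668038-68668337 on the minus strand (Mrpl50), chr17:55260401-55260700 on the plus strand (Mrpl32) and chr15:31852686-31852985 on the plus strand (Mrpl52). Each reads 5′ to 3′ along its gene, and capitals mark the motif matches.
Mrps23: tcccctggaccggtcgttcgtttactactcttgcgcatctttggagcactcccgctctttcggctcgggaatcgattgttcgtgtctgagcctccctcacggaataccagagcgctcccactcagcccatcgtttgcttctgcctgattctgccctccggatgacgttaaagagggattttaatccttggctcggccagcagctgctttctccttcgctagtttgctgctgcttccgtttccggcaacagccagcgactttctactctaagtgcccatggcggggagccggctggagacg
Mrpl41: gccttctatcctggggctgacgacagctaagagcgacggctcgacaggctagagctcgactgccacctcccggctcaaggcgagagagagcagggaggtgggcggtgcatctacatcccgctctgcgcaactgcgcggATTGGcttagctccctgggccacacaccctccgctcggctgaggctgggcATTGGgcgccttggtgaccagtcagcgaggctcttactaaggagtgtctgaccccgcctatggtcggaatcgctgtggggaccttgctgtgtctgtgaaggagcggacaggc
Mrpl50: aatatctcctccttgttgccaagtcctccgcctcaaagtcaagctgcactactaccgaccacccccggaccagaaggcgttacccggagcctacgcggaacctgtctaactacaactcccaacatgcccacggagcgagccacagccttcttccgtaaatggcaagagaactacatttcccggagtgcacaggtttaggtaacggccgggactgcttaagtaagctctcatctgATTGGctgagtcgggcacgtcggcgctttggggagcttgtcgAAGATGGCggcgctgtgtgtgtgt
Mrpl32: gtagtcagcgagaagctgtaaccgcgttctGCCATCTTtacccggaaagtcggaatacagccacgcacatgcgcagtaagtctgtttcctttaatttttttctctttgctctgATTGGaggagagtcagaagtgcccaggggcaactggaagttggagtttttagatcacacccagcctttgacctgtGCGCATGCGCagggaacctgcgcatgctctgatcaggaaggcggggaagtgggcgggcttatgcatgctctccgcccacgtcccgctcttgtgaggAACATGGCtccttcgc
Mrpl52: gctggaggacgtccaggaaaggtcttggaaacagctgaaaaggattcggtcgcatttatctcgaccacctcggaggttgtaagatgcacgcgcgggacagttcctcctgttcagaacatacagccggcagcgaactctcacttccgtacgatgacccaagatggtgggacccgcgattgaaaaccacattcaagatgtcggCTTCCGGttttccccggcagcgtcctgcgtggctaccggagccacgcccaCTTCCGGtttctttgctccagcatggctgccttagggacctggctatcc

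The Mrps23 promoter held none of the 4 motifs, while that of Mrpl32 held 1 NRF1 match starting at base -62 from the gene's start, 2 YY1 matches and 1 CCAAT box. No match means only that these letters are absent from this window. Over the 58 promoters, the ETS motif was found in 19 (32.8%), against 9.22% of all 27457 promoters of this length and 15.8% of the 9625 that belong to tested genes. The YY1 motif was found in 20 (34.5%), against 7.36% and 9.51%. The NRF1 motif was found in 10 (17.2%), against 4.71% and 8.85%. The CCAAT box, in 25 (43.1%), was near its share of 37.7% and 37.9%. Subunits of the respiratory chain, on 60 matched promoters, held the NRF1 motif in 16.7%, the ETS motif in 31.7% and the YY1 motif in 40.0%. These shares are descriptions of letters, and a match is not a bound site. In 13 members no motif was found, 22 held 1 kind, 17 held 2 and 6 held 3.

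The array labels and cell type were checked first. Il33 itself measured 8.07, 8.37 and 9.82 in the knockouts and 13.86, 16.32 and 16.60 in wildtype, so the values went with every label. Among endothelial markers, Cdh5 lay between 19.62 and 19.71 and Plvap between 19.67 and 19.90, near the highest value of each array. Ptprc, which encodes CD45, lay between 3.99 and 7.72, and Lyve1 between 5.04 and 8.22, and no marker of any list was at 0. The summed level of the 8 keratinocyte markers ran from 67.67 to 88.36 in the knockouts and from 64.18 to 103.22 in wildtype. In bulk samples, fewer cells of a type and less RNA per cell cannot be told apart. The number of arrays limits the precision of every value, since each sex has 1 or 2 animals per genotype.

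Most member probesets gave signal above the array's own background probesets, 23 probesets marked as background by their names. The medians of these lay between 4.55 and 4.73 on the 6 arrays. Of the 69 members, 52 lay above that median on every array, 16 of the small and 36 of the large subunit, and 31 lay above every background probeset on every array. Mrpl12, Mrpl44, Mrps12 and Mrps34 lay above it on no array. A brighter limit comes from 1153 control probesets with neg in their names: 61 members lay under their 95th percentile on all 6 arrays.

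The probesets with the highest means were Mrps18c (10.29), Mrps21 (10.04) and Mrps15 (9.53) in the small subunit and Mrpl42 (10.69), Mrpl17 (9.43) and Mrpl57 (8.04) in the large. These are levels of single probesets, which depend on the probes, so they give no order of the genes. At the low end stood Mrps34 at 2.93, Mrps12 at 3.88 and Mrps26 at 4.13, and Mrpl12 at 3.51, Mrpl44 at 3.52 and Mrpl50 at 3.99. The fit left out genes whose mean lay below 3.51, the value that 25% of the probesets that are not controls fall under. Mrps34, a protein found only in mitochondrial ribosomes, was the member left out, with 3.40, 2.93 and 2.87 in the knockouts and 2.45, 2.73 and 3.20 in wildtype. That leaves 68 members tested, 23 of the small and 45 of the large subunit. Their values varied over the 6 arrays about as much as other genes did: the median SD over arrays was 0.44 for the 69 members and 0.47 for all genes tested.

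Mrps23, a small-subunit protein with no bacterial counterpart, was lower in all 3 knockout arrays. Its levels were 5.82, 6.56 and 7.12 in the knockouts and 7.66, 7.78 and 7.56 in wildtype. The wildtype arrays lay close together and the knockout arrays did not: the female knockouts were lowest and the male knockout stood nearest to wildtype. The mean was 6.50 ± 0.65 (SD, n = 3) in knockout and 7.67 ± 0.11 (SD, n = 3) in wildtype, a difference of -1.17 on the log2 scale. It was -1.53 between the females and -0.44 between the 2 males. The highest knockout value lay 0.44 under the lowest wildtype value. Mrps23 has no pseudogene named in RefSeq, while 36 pseudogenes are named for 21 members, among them Mrps11, Mrps16, Mrps18b, Mrps18c, Mrps21, Mrpl17, Mrpl32 and Mrpl42. Whether the probes of those members tell gene from pseudogene was not tested.

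Mrps23 was chosen for this difference, and no other small-subunit member had groups that did not overlap. Over all 68 members tested, groups did not overlap in 4, against 6.25% of all genes tested. Of these 3 were lower in every knockout array than in every wildtype array, Mrps23, Mrpl41 and Mrpl19, against 2.89% of all genes. In the other direction Mrpl50 stood alone, against 3.36%. The gap was 0.44 for Mrps23, 0.11 for Mrpl41, and 0.02 each for Mrpl19 and Mrpl50. Just outside lay Mrps18a, whose highest knockout and lowest wildtype values were both 7.40, then Mrps14 and mrpl11 with an overlap of 0.01, and Mrps18b and Mrps2 with 0.02. Nothing is read from these counts, since the members were picked on this contrast. The same holds for the counts of limma's fit over 11577 genes, which are no test of genes chosen on these values. There 0 members had an adjusted p under 0.05, against 0.00864% of all genes, which is Il33 alone. The count with an unadjusted p under 0.05 was 2, against 1.98%, and it includes Mrps23 itself.

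**Figure D1:**
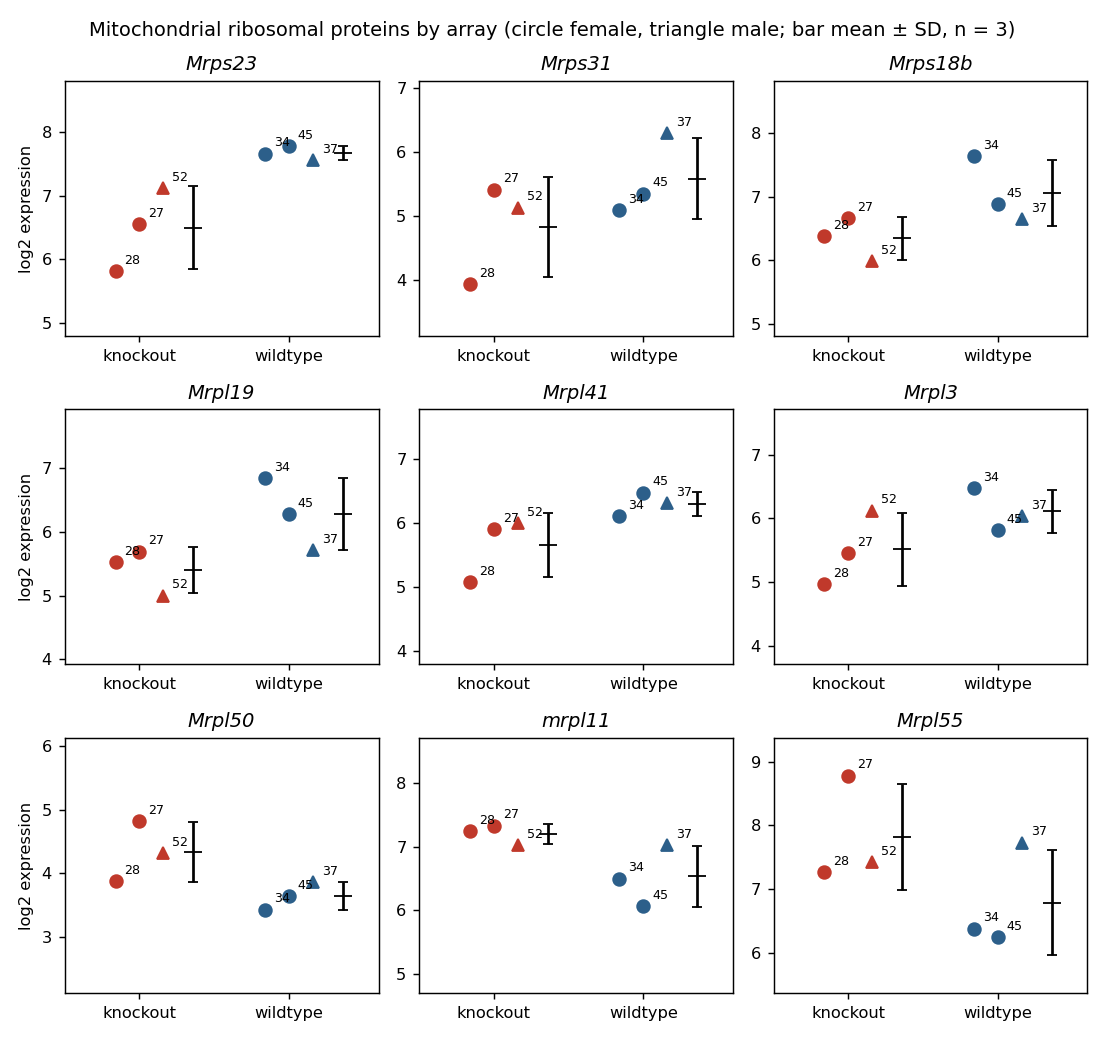
Deposited log2 level (vertical axis) of 9 members on each of the 6 arrays, knockout on the left and wildtype on the right of each panel, with circles for females, triangles for males and bars for the mean ± SD (n = 3). Mrps23 runs from 5.82 to 7.12 in knockout and from 7.56 to 7.78 in wildtype, while Mrpl55 is higher in knockout in the females and not in the males.

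Other small-subunit members with large negative differences overlapped between the groups. Mrps31, a mitochondrion-specific protein, measured 3.93, 5.41 and 5.13 in the knockouts and 5.09, 5.35 and 6.30 in wildtype, a difference of -0.76. Mrps18b measured 6.38, 6.67 and 5.99 against 7.64, 6.88 and 6.65, a difference of -0.71. It is related to a bacterial small-subunit protein, as are Mrps18a and Mrps18c. Mrps18a measured 7.40, 7.31 and 6.28 against 7.86, 7.40 and 7.44, a difference of -0.57, while Mrps18c, whose probeset was bright on all arrays, differed by -0.097. In Mrps18a and Mrps18b the male knockout was the lowest array, and in Mrps31 a female knockout was. Single arrays set much of these sizes: Mrps31 was at -0.31 without knockout 28 and -0.40 without wildtype 37, Mrps18b at -0.42 without wildtype 34, and Mrps18a at -0.21 without knockout 52.

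Mrps9 and Mrps21, both with bacterial counterparts, differed by -0.58 and -0.52. Mrps9 measured 6.26, 5.87 and 7.75 in the knockouts and 6.71, 7.22 and 7.69 in wildtype, so its males were alike and its female knockouts low. Mrps21 measured 9.92, 10.17 and 9.24 against 10.48, 10.82 and 9.60, so its males were lowest within each genotype. Mrps9 was at -0.20 without knockout 27, -0.34 without wildtype 37 and -1.14 without knockout 52. Mrps21 was at -0.26 without knockout 52 and without wildtype 45, and at -0.87 without wildtype 37. The small-subunit members with the most positive differences were Mrps11 (0.24), Mrps16 (0.22), Mrps24 (0.22), Mrps22 (0.19) and Mrps5 (0.14), all conserved in bacteria but Mrps22. None of these reached 0.5, while 8 of the 23 small-subunit members, Mrps23 among them, lay under -0.5. Of all 11577 genes tested, 927 lay under -0.5 and 1379 over 0.5.

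In the large subunit, Mrpl19, which has a bacterial counterpart, measured 5.53, 5.69 and 5.0 in the knockouts and 6.84, 6.28 and 5.71 in wildtype. The mean was 5.41 ± 0.36 (SD, n = 3) against 6.28 ± 0.57 (SD, n = 3), a difference of -0.87, with the male the lowest array of each genotype. Mrpl41, found only in mitochondrial ribosomes, measured 5.08, 5.90 and 6.0 against 6.11, 6.48 and 6.31, a difference of -0.64. Its knockouts were all below its wildtypes, and the female knockout 28 stood furthest down. Mrpl3, which lies near the centre where peptide bonds form, measured 4.97, 5.45 and 6.12 against 6.48, 5.82 and 6.04, a difference of -0.60. Mrpl20 measured 4.91, 5.69 and 6.30 against 6.16, 5.83 and 6.55, a difference of -0.55. In Mrpl3, Mrpl20 and Mrpl41 the lowest array was knockout 28, and without it they differed by -0.33, -0.19 and -0.35. Without knockout 52 Mrpl3 was at -0.90 and Mrpl20 at -0.88, and without wildtype 37 Mrpl20 was at -0.36. The dim Mrpl44 differed by -0.53, at levels of 2.76 to 4.25 that lie under the background median. It was at -0.29 without knockout 28 and -0.30 without wildtype 34.

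Large-subunit members also went the other way. Mrpl55, the largest positive difference among members, measured 7.27, 8.78 and 7.42 in the knockouts and 6.38, 6.24 and 7.73 in wildtype. Its mean was 7.82 ± 0.83 (SD, n = 3) against 6.78 ± 0.82 (SD, n = 3), a difference of 1.04, but the male wildtype lay above the male knockout. Without knockout 27 it was 0.56. Mrpl50, mitochondrion-specific, measured 3.88, 4.82 and 4.32 against 3.43, 3.64 and 3.86, a difference of 0.70. Its groups did not overlap, by 0.02, at levels under the background median on all arrays but knockout 27, and it differed by 0.46 without that array. The stalk-base protein mrpl11 measured 7.25, 7.33 and 7.02 against 6.50, 6.07 and 7.03, a difference of 0.67. Its males were alike, so the difference lay in the females, and it was 0.44 without wildtype 45. Mrpl57 measured 8.01, 7.89 and 8.78 against 7.46, 7.60 and 8.52, a difference of 0.37.

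Several members had opposite directions in the sexes, such as Mrps22 (0.64 in females, -0.72 in males) and Mrpl55 (1.715 and -0.31). Mrpl35, a large-subunit protein with a bacterial counterpart, was another. It measured 7.02, 7.09 and 6.87 in the knockouts and 6.37, 5.53 and 7.68 in wildtype, so it was 1.11 higher in female knockouts and -0.81 apart in the 2 males. It was the only member with an unadjusted interaction p under 0.05, and its adjusted p in limma was 0.999. Over all genes 1.03% had an unadjusted interaction p under 0.05, and 0 genes passed after adjustment. The interaction rests on 1 male per genotype. The Mrpl35 difference over both sexes was 0.47, -0.032 without wildtype 45 and 1.04 without wildtype 37.

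The members as a whole were centred slightly below zero in the knockouts. The median difference was -0.13 over 68 members, with quartiles of -0.40 and 0.17, against a median of 0.033 over all genes tested. Of the members 43 were lower in knockout, 24 higher and Mrpl12 was equal, which is 63.2% lower, against 46% of all genes. Differences under -0.5 were found in 13 members, Mrps23 among them, and over 0.5 in 3. Of all 11577 genes tested, 927 lay under -0.5 and 1379 over 0.5. The median SE of a single member's difference was 0.38 in the fit. Most of the 68 differences were smaller than their error, but those under -0.5 or over 0.5 were not. The median over members moved to -0.030 without knockout 27 and -0.032 without wildtype 37, so its size rested on those arrays.

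Compared by subunit, the small subunit lay lower. Its median difference was -0.27, with 17 of 23 members lower in knockout, against -0.093 and 26 of 45 in the large subunit. The highest tested small-subunit member was at 0.24, while 3 large-subunit members exceeded 0.5, against 1379 of all 11577 genes tested. The subunit medians differed by -0.18, and no test of that difference is given. In the structure of the ribosome, Mrps18a and Mrps30 sit in the large subunit despite their names. With them moved, the small-subunit median was -0.15 (15 of 21 lower), the large-subunit median -0.097 (28 of 47 lower), and the difference shrank to -0.057. Without wildtype 37, the median was -0.13 in the small subunit and 0.012 in the large, and without knockout 28 the large-subunit median was -0.0083. With the mean of the hybridisation spike-ins as a covariate the subunits differed by -0.027.

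**Figure D2:**
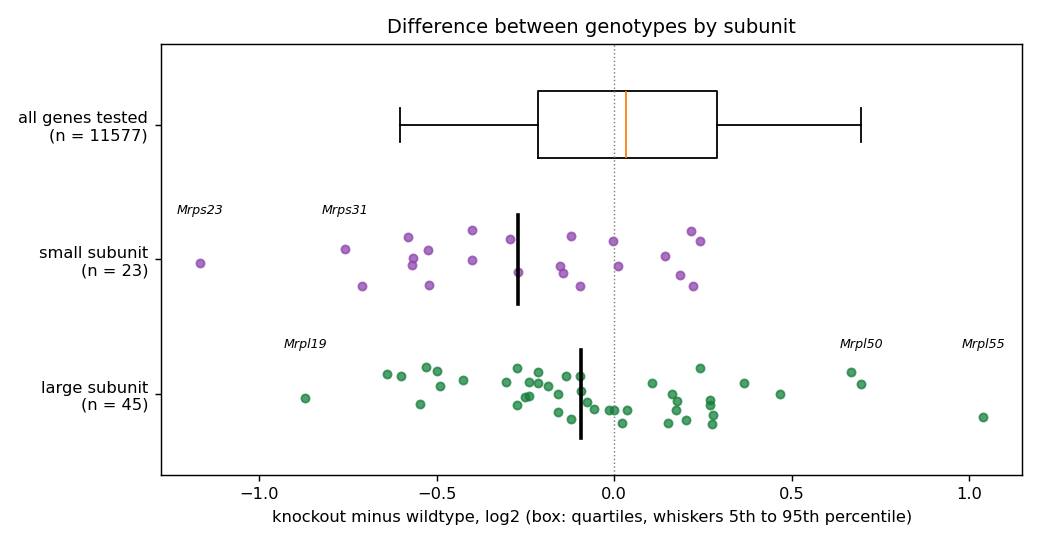
Knockout minus wildtype difference in log2 level (horizontal axis) of each tested member (points), by subunit, with a thick line at each subunit median and a box for the quartiles and median of all genes tested. Small-subunit members run from -1.17 to 0.24 and large-subunit members from -0.87 to 1.04, so the ranges overlap over most of their length.

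Within the subunits, members were split by the class that ribosome nomenclature gives them, conserved in bacteria or mitochondrion-specific. It counts Mrps18a and Mrps18b as mitochondrion-specific although both are related to a bacterial protein. Among 8 mitochondrion-specific small-subunit members tested, which include Mrps23, Mrps31 and Mrps18b, the median difference was -0.41 and 6 were lower. Among 13 small-subunit members conserved in bacteria it was -0.14, with 9 lower. In the large subunit the medians were -0.12 over 19 mitochondrion-specific members, 12 of them lower, and -0.095 over 28 conserved members, 16 of them lower. With Mrps18a and Mrps18b counted as conserved, a choice made after seeing the data, the small-subunit medians were -0.29 (7 members) and -0.15 (14 members), and both large-subunit medians were near -0.10. The class of a single gene thus moved the lowest median from -0.41 to -0.29. Members with an ETS match in the promoter had a median difference of -0.19 (19 members) and those without of -0.12 (39 members). For the NRF1 motif the medians were -0.11 with a match (10 members) and -0.15 without (48 members). For the YY1 motif they were -0.17 with (20 members) and -0.12 without (38 members), and for the CCAAT box -0.19 with (25 members) and -0.097 without (33 members). Members were lower in knockout more often than not on both sides of each split.

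Array by array, the small subunit showed a low male knockout. When each member was set to its own mean over the arrays, the small-subunit median was -0.035, 0.0050 and -0.25 in the knockouts and 0.11, 0.032 and 0.23 in wildtype. All 3 knockouts were below all 3 wildtypes, with knockout 27 and wildtype 45 closest. The large-subunit medians were -0.13, -0.11 and 0.27 in the knockouts and -0.080, -0.072 and 0.31 in wildtype. Both males were high here and the genotypes overlapped. Over all genes tested the medians were -0.060, -0.013 and 0.12 against -0.073, -0.10 and 0.12, so the males were also high overall. By this measure the male knockout was the lowest array for the small subunit and the second highest for the large. By mean level of the tested small-subunit members, knockout 28 was lowest, at 6.29 against 6.31 in knockout 52. By their median level wildtype 45 was lowest, at 6.21, and the genotypes overlapped. In the 2 males alone the median difference was -0.44 over the small subunit and -0.030 over the large. In the females it was -0.24 and -0.065.

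**Figure D3:**
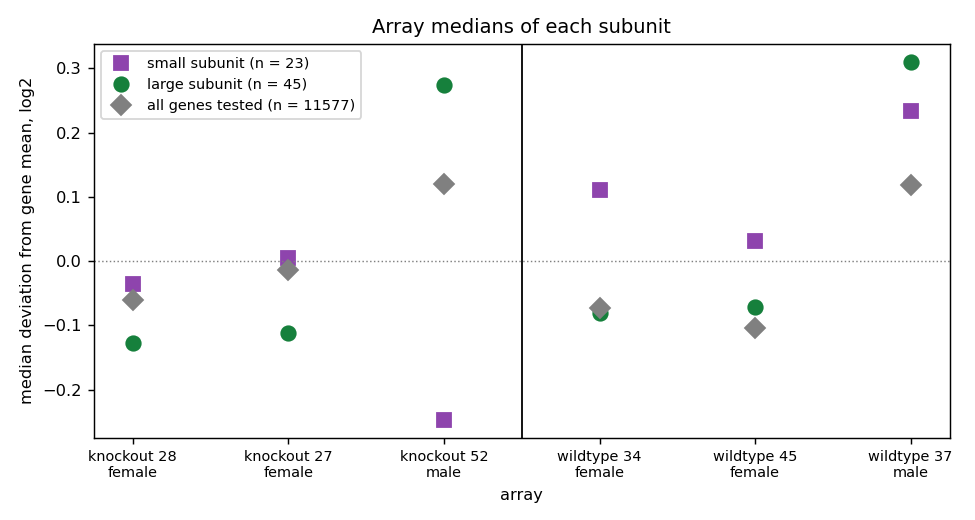
Median over members of the deviation from each gene's own mean (vertical axis, log2) on each of the 6 arrays, for the small subunit, the large subunit and all genes tested. The small-subunit median is -0.25 on the male knockout, while the large-subunit median is 0.27 there and 0.31 on the male wildtype.

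**Figure D4:**
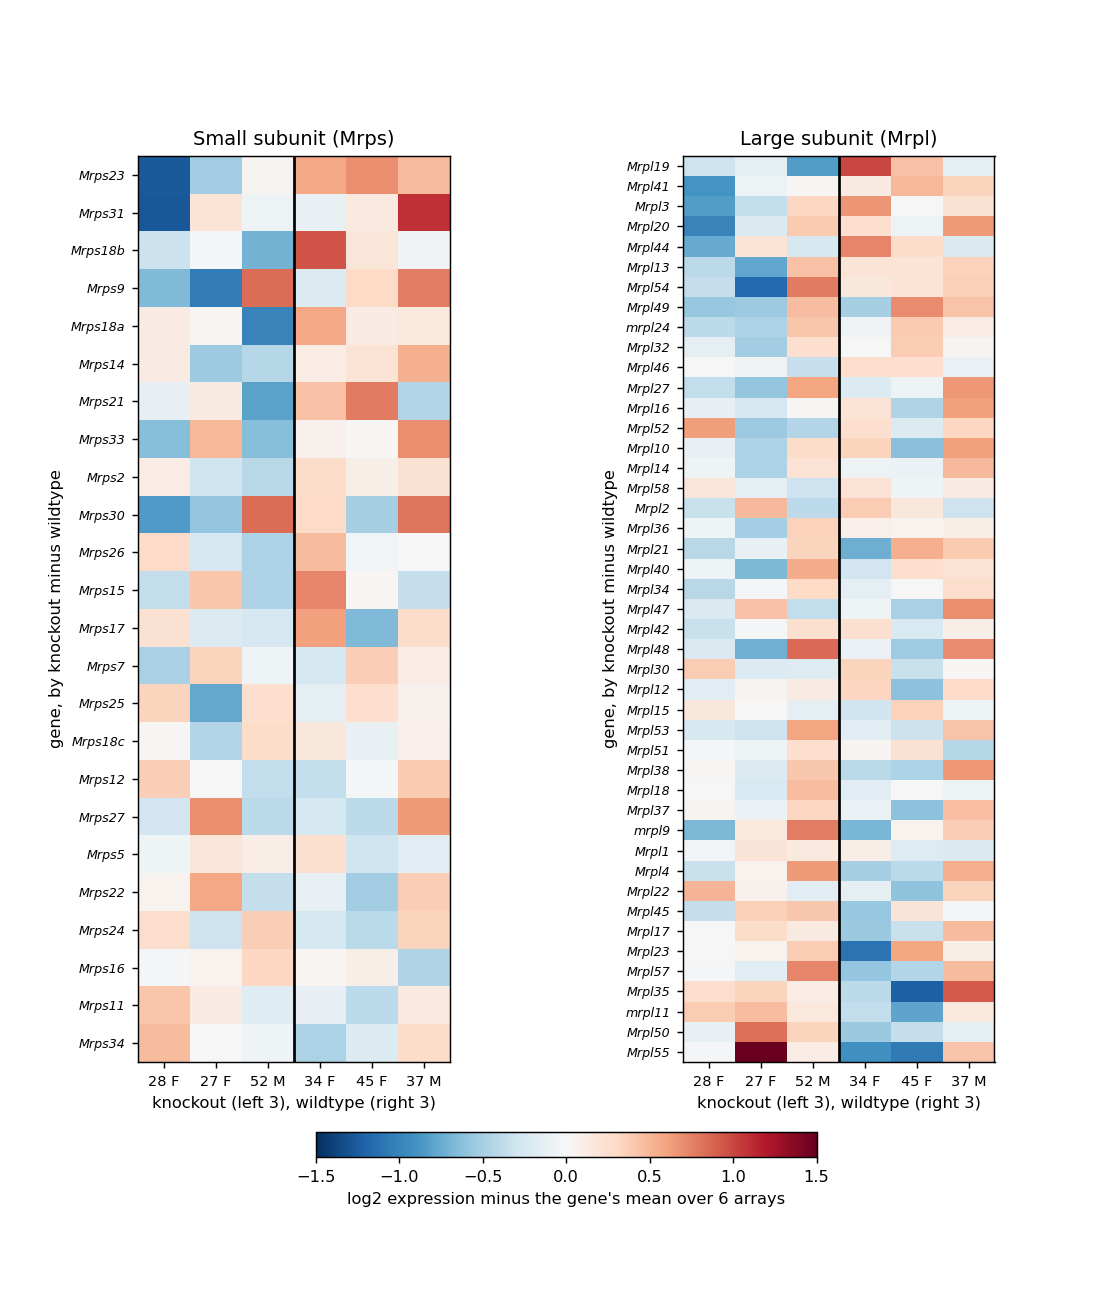
Deviation of each of the 69 members from its own mean (colour, log2) on each of the 6 arrays (columns), with small-subunit members on the left and large-subunit members on the right, ordered by knockout minus wildtype. The male columns, knockout 52 and wildtype 37, carry 43 and 53 of the 69 members above their own mean, while the female columns carry 23 to 33. Of all 11577 genes tested, 7010 and 6999 lay above their own mean on the male arrays, and 4788 to 5598 on the female arrays.

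Sex was compared next, as males minus females with genotype in the model. Of 68 members 49 were higher in males, with a median of 0.26, against 61.5% and 0.18 over all genes tested. In limma 0 members had an adjusted p under 0.05, against 0.0259% of all genes. Before adjustment 9 members were higher in males with p under 0.05, against 14.7% of all genes, and 2, Mrps21 and Mrpl19, were lower, against 3.84%. The share of members that passed was thus near that of all genes. Both males lay above all 4 females in 17 members, 14 of the large and 3 of the small subunit, against 23.4% of all genes.

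The members with the smallest p were spread over both subunits. Mrpl48, a mitochondrion-specific large-subunit protein, measured 5.10, 4.59, 5.22 and 4.78 in the females 28, 27, 34 and 45, and 6.16 and 6.02 in the males. It was 1.17 higher in males (SE 0.33, adjusted p = 0.146 in limma). Mrps30, which is built into the large subunit, measured 4.58, 4.85, 5.72 and 4.94 in females and 6.27 and 6.24 in males, a difference of 1.23 (SE 0.36, adjusted p = 0.151 in limma). The males were nearly equal in both genes, and no female reached them. Mrps9 measured 5.87 to 7.22 in the females and 7.75 and 7.69 in males, a difference of 1.21 (SE 0.36, adjusted p = 0.159 in limma). It was also among the small-subunit members with a low female knockout level.

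Mrpl27 and Mrpl57 were higher in males by 0.93 (SE 0.31) and 0.91 (SE 0.30), with an adjusted p of 0.176 each in limma. Mrpl27, whose bacterial counterpart reaches into the peptide-bond centre, measured 5.39 to 5.91 in the females and 6.57 and 6.63 in the males. Mrpl57 measured 7.46 to 8.01 in the females and 8.78 and 8.52 in the males. Mrps21 went the other way, at 9.92 to 10.82 in females and 9.24 and 9.60 in males, a difference of -0.93 (SE 0.31, adjusted p = 0.181 in limma). Array weights let limma trust some arrays more than others. They were 1.86 for each male and 0.65 to 0.87 for the females, so the males counted most in a comparison of the sexes. With these weights 713 genes (6.16%) were called, and so were Mrpl48 (adjusted p = 0.0435 in limma), Mrps30 (0.0447) and Mrps9 (0.0487). Without knockout 27, 74 genes were called in place of 3.

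**Figure D5:**
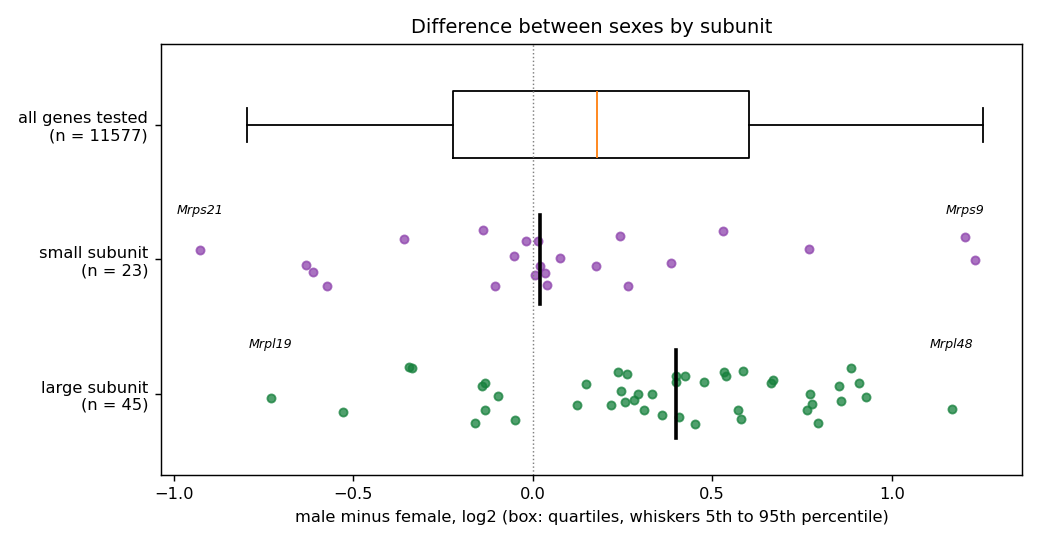
Male minus female difference in log2 level (horizontal axis) of each tested member (points), by subunit, with a thick line at each subunit median and a box for the quartiles and median of all genes tested. The large-subunit median is 0.40, the small-subunit median is 0.02 and the median over all genes is 0.18.

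By subunit, the large subunit had a median of 0.40, with 35 of 45 higher in males, and the small subunit a median of 0.02, with 14 of 23. All genes had a median of 0.18, so the large subunit lay 0.22 above it and the small subunit -0.16 from it. The medians themselves moved with the scaling: after a further quantile normalization the all-gene median was 0.061, the large-subunit median 0.27, and the small-subunit median turned to -0.15. After centring on array medians they were 0.28, 0.50 and 0.12. Relative to all genes, the large subunit lay at 0.21 and the small subunit at -0.21 after quantile normalization, close to the offsets as deposited.

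Other features of the arrays moved with sex. The hybridisation spike-ins had means of 8.82 and 8.91 in the males and 9.33 to 10.42 in the females. Of 8 keratinocyte markers 5 were lower in both males than in every female, with summed levels of 67.67 and 64.18 in males and 68.56 to 103.22 in females. The lymphatic markers, whose summed levels were 46.85 and 35.95 in males and 52.15 to 57.96 in females, were lower in both males in 5 of 6. Leukocyte markers were lower in the males on average in all 8 tested (median -1.10), and pericyte and smooth muscle markers higher in 7 of 9 (median 0.71). With the spike-in mean or the keratinocyte median as a covariate, the median difference over members was 0.20 in each case. Whether cell composition had a part in the sex difference was not tested.

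Marker lists also differed between the genotypes. Of the tested markers, 6 of 8 for keratinocytes were lower in knockout (median -1.25), as were 7 of 8 for leukocytes (median -0.52) and 6 of 8 for fibroblasts (median -0.70). The keratinocyte median was -2.23 in the females but 0.38 in the males, with 1 of 8 lower there. Leukocyte and fibroblast medians were -0.76 and -0.95 in the females. In the males they were -0.09 and -0.075, with 4 of 8 lower in each list. For all these cell types wildtype 34 had the highest summed level. Erythroid markers were higher in 4 of 4, with a median of 1.87, and lymphatic markers in 5 of 6, with a median of 0.68. Summed levels overlapped between the genotypes in each of these lists: fibroblast sums ran from 65.92 to 77.30 in knockout and 66.70 to 90.11 in wildtype. The leukocyte sums ran from 47.61 to 59.04 and 46.94 to 68.74, and the erythroid sums from 43.02 to 58.80 and 36.77 to 47.38. Blood endothelial markers, at 193.91 to 196.86 in knockout and 189.11 to 193.88 in wildtype, had sums that did not overlap, with 193.91 and 193.88 as the nearest values. Pericyte and smooth muscle markers were higher in knockout in 7 of 9, with a median of 0.29 and overlapping sums. With the keratinocyte median as a covariate, the Mrps23 difference was -1.29 and the median over members -0.16.

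Over both sexes together, other genes of mitochondrial translation did not share the members' low median. Over 19 translation factors the median difference was 0.18, with 8 lower in knockout, and over 14 mitochondrial tRNA synthetases it was 0.14, with 5 lower. Assembly factors of the mitochondrial ribosome had a median of 0.0084, with 11 of 22 lower. In the females the 3 medians were 0.06, 0.2375 and -0.03 in this order, against -0.15 for the members. In the males they were 0.02, 0.135 and -0.135, against -0.09 for the members, so the assembly factors were lower there. In limma 0 genes of these lists had an adjusted p under 0.05, and 0 had an unadjusted p under 0.05. Gfm2, which helps split spent ribosomes, measured 5.59, 5.69 and 6.18 in the knockouts and 4.98, 4.39 and 5.53 in wildtype, with groups that did not overlap and a difference of 0.85. Ears2, the synthetase for glutamate, was likewise higher in all knockouts, at 3.94 to 4.24 against 3.66 to 3.91, but under the background median of every array. Trub2, a pseudouridine synthase, was lower (-0.40). Among bright genes, the recycling factor Mrrf differed by 0.50, Oxa1l by 0.31, Gars1 by 0.13, Kars1 by 0.06, Mterf3 by -0.013 and Malsu1 by -0.13; Gars1 and Kars1 also serve the cytosol.

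A further 5 proteins of the ribosome carry other symbols: Dap3, Chchd1, Aurkaip1, Ptcd3 and Gadd45gip1. Their median difference was -0.077, with 3 of 5 lower. Within the sexes it was above zero, at 0.055 in the females and 0.31 in the males, with 2 of 5 lower in each. The members' medians there were -0.15 and -0.09. Chchd1 differed by -0.18 and Aurkaip1 by -0.077. In the list for mitochondrial DNA and its transcription, 7 of 17 were lower and the median was 0.18. There, Polrmt, the mitochondrial RNA polymerase, measured 4.18, 4.60 and 4.22 in the knockouts and 5.06, 5.24 and 4.96 in wildtype, a difference of -0.75, with the knockout values under the background median of their arrays. Twnk, the mitochondrial DNA helicase, lay the other way, at 7.12, 7.20 and 6.72 against 6.31, 6.36 and 6.14, a difference of 0.74. Neither overlapped between genotypes, and both had an unadjusted p under 0.05 in limma but did not pass after adjustment. The bright Ssbp1 and Hsd17b10 differed by -0.15 and -0.29. Of 9 nuclear regulators 2 were lower, with a median of 0.44. The median was 0.565 in the females, with 0 lower, and -0.04 in the males, with 5 lower. Nrf1 stayed between 10.01 and 10.09 on all 6 arrays, and Myc measured 14.26 to 16.59, with differences of 0.69 for knockout and 1.54 for males, neither of which passed.

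Respiratory chain subunits, most of them partners of the proteins these ribosomes make, had medians below zero like the members. Complex I subunits were lower in knockout in 23 of 32, with a median of -0.13, and subunits of complexes II to V in 25 of 35, with a median of -0.19. Of all genes 46% were lower. In the females alone the medians were -0.18 for complex I and -0.29 for complexes II to V, against -0.15 for the members. In the males alone the complex I median was -0.04, with 18 of 32 lower. For complexes II to V it was 0.06 there, with 15 of 35 lower, and for the members -0.09. In limma 0 passed after adjustment, and 3 of complex I (9.38%) and 0 of the others had an unadjusted p under 0.05, against 1.98% of all genes. Lower in every knockout array than in every wildtype array were 5 of complex I, Ndufa11, Ndufb3, Ndufb4, Ndufb8 and Ndufs5, which is 15.6%. So were 3 of the others, Atp5mf, Atp5pf and Cyc1, which is 8.57%. The share over all genes was 2.89%. Ndufb4 had the largest of these differences, at 8.80, 8.11 and 8.83 in the knockouts and 10.38, 9.49 and 9.41 in wildtype, which is -1.18. Ndufb8 differed by -0.88, Ndufb3 by -0.86, Ndufa11 by -0.74, Cyc1 by -0.69, Atp5mf by -0.58, Atp5pf by -0.48 and Ndufs5 by -0.47. Of the other bright subunits, all overlapped between genotypes: Ndufb5 differed by -0.79, Ndufb9 by -0.21 and Cox6c by -0.11.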

How the data were processed

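RNA of sorted cells was biotin-labelled for Affymetrix arrays, as the labels' protocols state. The authors deposited log2 values, for which the submitters' processing notes name RMA and Affymetrix Expression Console. Neither versions nor the probeset library nor a build is stated there. RMA subtracts background, equalises array distributions and combines probes. That the values are log2 rests on the RMA entry and their range; they reach 19.93, high for that scale. They were used as deposited. Of 23188 probesets that are not controls, 15049 had 1 symbol in the platform annotation, 0 had several and 8139 were unnamed.

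Genes averaging below the 25th percentile (3.51) were left out, which removed 3460 and left 11577. limma 3.58.1 (R 4.3.3; lmFit and eBayes) compared genotypes on all 6 arrays, and sex with genotype as a covariate; adjusted p-values are two-sided Benjamini-Hochberg values over all genes, with a threshold of 0.05. The fit was tested on simulated data. An exact permutation test was not run.

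Symbols were matched without regard to case, which adds mrpl9, mrpl11 and mrpl24. All 69 Entrez identifiers were found in RefSeq GRCr8. Members, gene lists and tests were chosen with earlier results of these data known. Named are Mrps23, the 5 members with the most negative and the 5 with the most positive difference in each subunit, members whose groups did not overlap, the 3 highest and 3 lowest in mean level, the 6 smallest sex p-values, dim members, and, per list, genes that did not overlap and the 2 of highest mean. Alternatives covered the filter, scaling, covariates, array weights, subunit assignment and each array left out. The skeletal muscle and adipocyte marker lists had summed levels of 33.90 to 37.58 and 33.56 to 35.23 over the 6 arrays, and the pericyte list 80.86 to 94.98. Animals are separate by their numbers.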

Additional observations from a re-analysis of the deposited data

How the results depend on the processing

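The Mrps23 difference kept its sign under all alternatives run, from -1.48 to -0.83 with an array left out. Leaving out arrays could not change that sign, because Mrps23 was chosen for being lower in every knockout array. The member and small-subunit medians stayed below zero in all alternatives. The large-subunit genotype median ran from -0.17 to 0.012 with an array left out, and that of the small subunit from -0.32 to -0.13, the latter without wildtype 37. The small-minus-large difference ran from -0.30 to -0.047 with an array left out and was -0.027 with the spike-in mean as a covariate. Genotype genes called fell from 1 to 0 with no filter, with a filter at the 50th percentile and in females only, and were 0 to 1 with an array left out. Members that did not overlap fell from 4 to 2 after quantile normalization.

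Genes called by sex, 3 in the fit as reported, were 29 after centring, 26 with trend and robust options, 713 with array weights, 1 with the spike-in mean as a covariate and 2 to 74 with an array left out. Members called by sex were 3 with array weights, which were highest for the males, and 0 otherwise. The member median for sex was 0.15 after quantile normalization, 0.36 after centring, and 0.20 with the spike-in mean as a covariate. It was also 0.20 with the keratinocyte median as a covariate, an alternative chosen after seeing the data, and 0.25 to 0.37 with an array left out. The causes were not tested.

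Over 30 named members 444 alternative values were computed, and 442 lay within the spread between replicates. Most of that count was fixed in advance, so no stability is read from it. Leaving out an array could not move a difference beyond this spread, because the spread is computed from the same arrays. The filters, the mean over probesets and sex as a covariate left the difference of each named member they kept unchanged. Of the 444 values, 22, in 10 members, were counted as changes of sign. Of these 5 belong to Mrpl12, whose difference as reported was 0 and had no sign. Mrps16 moved to -0.05 and Mrps12 to 0.38 in females only. Signal over background limits the 4 members that lay above the background median on no array. No paired analysis was possible because the groups share no animal numbers.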
